A study of Mus musculus with 76 samples.

Results

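The genes described here are the developmental regulators of the Hox, Pax, Lhx, Nkx, sine oculis-related, Dlx, Irx and En families. They were chosen by symbol alone, as every row of the 4 deposited count tables whose name is a numbered member of one of these families. The choice gave 90 of the 48321 genes in the tables. Hoxa supplied 11 members, Hoxb 10, Hoxc 9, Hoxd 9, Pax 9, Lhx 8, Nkx 14, sine oculis-related 6, Dlx 6, Irx 6 and En 2.

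Polyadenylated RNA had been sequenced from 76 single oocytes, embryos or tissue pieces of mice with a maternal knockout of Ezhip (Ezhip matKO) or of wild type (WT). Oocytes came from 4 matKO and 3 WT libraries, all labelled female. The 2-cell (2C) embryos were 12 matKO (6 female, 6 male) and 11 WT (5 female, 6 male). Blastocysts were 14 matKO (7 female, 7 male) and 14 WT (6 female, 8 male). Extraembryonic ectoderm (ExE), the trophoblast tissue beside the epiblast, was taken at embryonic day 6.5 from 8 matKO (5 female, 3 male) and 10 WT (6 female, 4 male) conceptuses. The labels name no strain, no Cre line, no genotype of the father and no litter or donor, so a p-value here weighs genotype against library-to-library spread, some of which may be technical. The study asked what maternal loss of Ezhip does to early development, and the comparison followed here is whether these regulators were higher in matKO than in WT at each stage.

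Homeodomain and paired-domain proteins bind DNA and set position along the body axis and the identity of organs. In cells that do not use them, their genes are classic targets of Polycomb repressive complex 2 (PRC2), which trimethylates lysine 27 of histone H3 over their CpG-rich starts. EZHIP, made in the oocyte, is an inhibitor of PRC2. Hox genes lie in clusters that are opened in order as the primitive streak forms, and mouse Irx genes lie in a pair of clusters.

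Library totals spanned 5.27 to 26.5 megacounts in oocytes, 1.05 to 14.1 megacounts in 2C embryos, 4.06 to 32.0 megacounts in blastocysts and 2.74 to 26.7 megacounts in ExE. Ezhip averaged 0.282 ± 0.199 counts per 1000000 library counts (CPM) in matKO oocytes, against 1278 ± 306 CPM in WT oocytes (SD, n = 4 and 3). In 2C embryos it averaged 3.41 ± 5.5 CPM in matKO and 153 ± 87.1 CPM in WT (SD, n = 12 and 11). It was 0.370 ± 0.557 CPM in matKO and 5.89 ± 12.3 CPM in WT blastocysts (SD, n = 14 each), and 0.190 ± 0.328 CPM in matKO and 0.371 ± 0.353 CPM in WT ExE (SD, n = 8 and 10). Marker genes of each labelled tissue were present in every group. Summed oocyte markers were 13099 to 32282 CPM in matKO and 26882 to 32603 CPM in WT oocytes, and summed 2-cell transcripts were 162 to 2025 CPM in matKO and 49.7 to 509 CPM in WT 2C embryos. Summed trophectoderm markers were 989 to 4435 CPM in matKO and 2229 to 5969 CPM in WT blastocysts, and summed ExE markers were 232 to 2793 CPM in matKO and 484 to 1390 CPM in WT ExE. Library identifier prefix and genotype coincided in ExE and cannot be told apart there.

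Of the 90 members, 27 overlap an exon of another gene on the opposite strand and 10 on the same strand. The sources used here do not say whether counting used strand, so reads of Hoxa7 and Hoxaas3, Hoxb5 and Hoxb5os, Irx3 and Irx3os, and Nkx6-2 and Inpp5a cannot be told apart, and Hoxd10 shares exonic sequence with Gm28309. Hoxb1, Hoxb6, Hoxa10, Irx1, Irx4, Lhx1 and Lhx8 overlap no other annotated exon.

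RefSeq promoter windows on GRCm38.p6, from 250 bases before to 50 bases after the start, were found for 58 of the 90 members, and Hoxb5, Hoxb6 and Irx1 are named only. Below are the windows of the 3 called ExE members that had one, and of the leading members in oocytes (Lhx8) and blastocysts (Nkx6-2), with each CpG in capitals. They are chr11:96365508-96365807 (+) for Hoxb1, chr6:52218524-52218823 (-) for Hoxa7, chr13:73260247-73260546 (+) for Irx4, chr3:154330511-154330810 (-) for Lhx8 and chr7:139582748-139583047 (-) for Nkx6-2. The RefSeq start of Hoxa7 used here lies 3281 bases inside the gene as deposited.
Hoxb1: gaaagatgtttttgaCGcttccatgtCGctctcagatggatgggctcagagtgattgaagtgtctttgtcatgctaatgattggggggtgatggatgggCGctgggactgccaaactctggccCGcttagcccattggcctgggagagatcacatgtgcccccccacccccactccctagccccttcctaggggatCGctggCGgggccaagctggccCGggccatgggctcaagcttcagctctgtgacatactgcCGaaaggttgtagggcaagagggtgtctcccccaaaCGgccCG
Hoxa7: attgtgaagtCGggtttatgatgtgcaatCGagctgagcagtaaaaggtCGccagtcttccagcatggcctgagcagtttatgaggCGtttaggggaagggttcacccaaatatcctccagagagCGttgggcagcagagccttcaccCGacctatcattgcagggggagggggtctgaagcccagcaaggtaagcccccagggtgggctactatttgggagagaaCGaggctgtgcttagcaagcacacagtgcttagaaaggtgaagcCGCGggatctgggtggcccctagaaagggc
Irx4: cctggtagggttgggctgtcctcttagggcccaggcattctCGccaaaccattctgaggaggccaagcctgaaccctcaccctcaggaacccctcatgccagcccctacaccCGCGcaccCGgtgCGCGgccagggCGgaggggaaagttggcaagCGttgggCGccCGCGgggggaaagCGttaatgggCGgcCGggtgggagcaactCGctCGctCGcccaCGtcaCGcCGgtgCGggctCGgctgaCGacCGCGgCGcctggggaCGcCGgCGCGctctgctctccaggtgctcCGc
Lhx8: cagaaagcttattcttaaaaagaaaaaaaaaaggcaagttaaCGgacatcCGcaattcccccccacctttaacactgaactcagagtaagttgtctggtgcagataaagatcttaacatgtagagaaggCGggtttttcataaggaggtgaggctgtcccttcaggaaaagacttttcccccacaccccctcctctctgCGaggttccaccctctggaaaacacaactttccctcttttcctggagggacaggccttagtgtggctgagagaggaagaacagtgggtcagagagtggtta
Nkx6-2: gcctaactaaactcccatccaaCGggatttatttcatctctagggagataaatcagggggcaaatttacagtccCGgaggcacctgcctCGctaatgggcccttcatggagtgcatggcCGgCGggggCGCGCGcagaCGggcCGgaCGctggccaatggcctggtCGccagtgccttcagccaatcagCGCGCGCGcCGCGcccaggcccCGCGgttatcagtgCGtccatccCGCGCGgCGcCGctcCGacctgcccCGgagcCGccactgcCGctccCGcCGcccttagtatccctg
These windows held 10 CpGs in Hoxb1, 9 in Hoxa7, 31 in Irx4, 4 in Lhx8 and 32 in Nkx6-2. Over the 58 members with a window the median was 17 CpGs, against 7 in the 32476 windows of all other genes. An observed over expected CpG ratio of at least 0.6 was reached by 35 members (60.3%), against 36% of the other windows. The string TGATNNAT, searched on both strands as a rough form of a Hox and Pbx site, was present in 8.62% of member windows and 8.79% of other windows. Of the windows shown, those of Hoxb1 and Nkx6-2 held it. TAATTA was present in 1.72% of member windows and 5.30% of others, and TATAAA in 6.90% of member windows and 13.6% of others.

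Each stage had its own few leading members, and most members were close to zero. Between genes, levels are given as CPM per kilobase of annotated length, averaged over libraries. In oocytes Lhx8, a LIM-homeobox factor that mouse oocytes need to differentiate, stood far above the rest at 107 CPM per kb in matKO and 136 CPM per kb in WT. Hoxa7 followed at 8.90 CPM per kb in matKO and 5.30 CPM per kb in WT, ahead of Nkx6-2, Lhx2 and Lhx5. In 2C embryos Lhx8 still led, at 14.7 CPM per kb in matKO and 17.4 CPM per kb in WT, followed by Hoxa7 at 10.5 CPM per kb in matKO and 6.74 CPM per kb in WT, and then by Lhx1, Irx2 and Dlx3.

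In blastocysts Nkx6-2, a factor of the ventral neural tube and of oligodendrocytes, led at 17 CPM per kb in matKO and 14.1 CPM per kb in WT. Every other member averaged below 3 CPM per kb there, with Irx2, Hoxb13 and Nkx2-3 among the next. In ExE the Iroquois genes led. Irx1 averaged 14.1 CPM per kb in matKO and 2.42 CPM per kb in WT, and Irx2 13.03 CPM per kb in matKO and 8.23 CPM per kb in WT. Irx3 averaged 10.4 CPM per kb in matKO and 11.5 CPM per kb in WT, and En1 4.41 CPM per kb in matKO and 3.11 CPM per kb in WT. Stages were scaled apart, so no test was made between them, and in embryo and tissue libraries fewer cells of a type and less RNA per cell cannot be told apart.

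**Figure D1:**
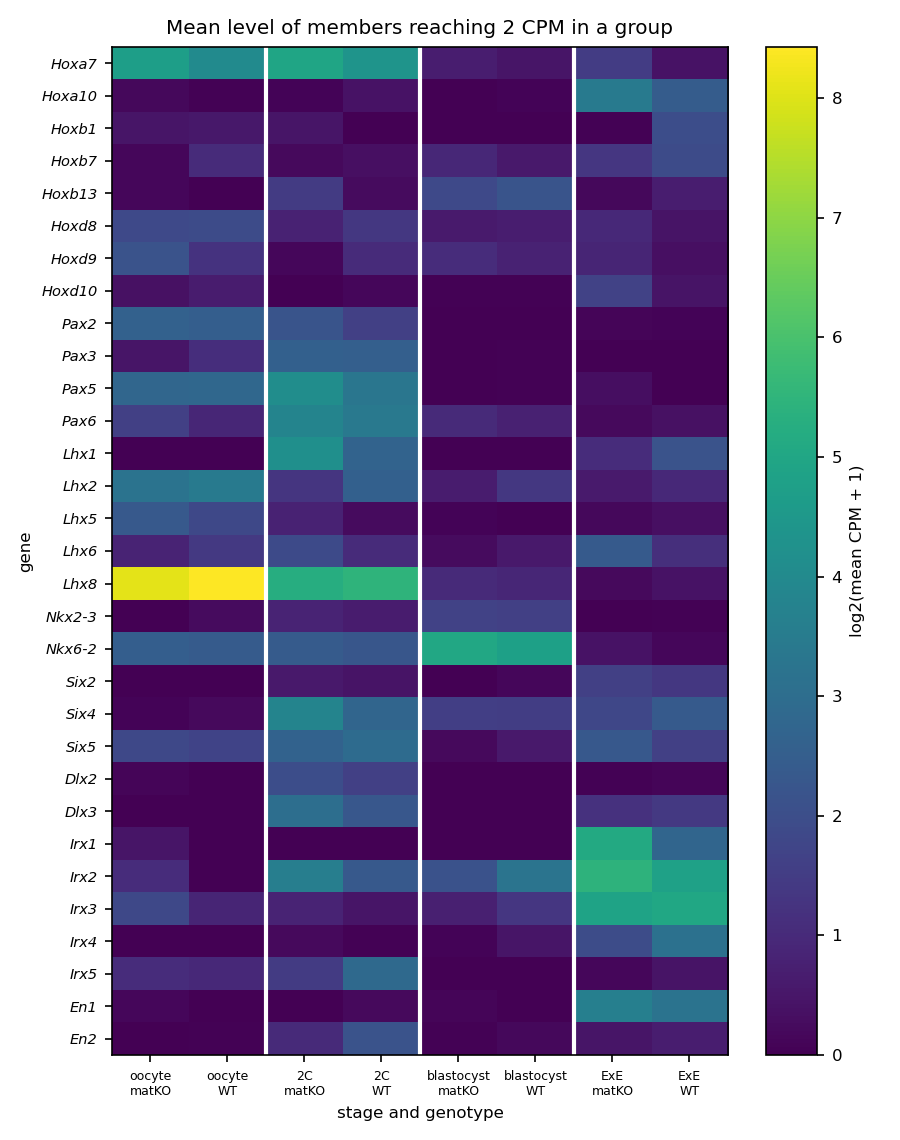
Mean level, as log2(mean CPM + 1), of 31 members that reached a mean of 2 CPM in at least 1 group, with matKO left of WT within each stage. Lhx8 stands out in oocytes and 2C embryos, Nkx6-2 in blastocysts, and Irx1, Irx2 and Irx3 in ExE.

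The number of members detected did not separate the genotypes at any stage. After each library was thinned to the smallest total of its stage, the number of members with at least 1 count averaged 35.6 ± 6.78 in matKO and 30.4 ± 4.02 in WT oocytes (SD, n = 4 and 3). The same number was 20.2 ± 5.28 in matKO and 20.8 ± 7.51 in WT 2C embryos (SD, n = 12 and 11), 15.9 ± 8.81 in matKO and 17.1 ± 5.93 in WT blastocysts (SD, n = 14 each), and 28.7 ± 3.75 in matKO and 33.9 ± 6.62 in WT ExE (SD, n = 8 and 10). The ranges of matKO and WT overlapped at every stage.

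In blastocysts the number followed the library prefix as well. Within prefix D405T it averaged 24.8 ± 4.93 in 6 matKO and 19.4 ± 3.96 in 10 WT embryos, and within D707T 9.28 ± 2.94 in 8 matKO and 11.4 ± 6.71 in 4 WT embryos (SD). The direction thus differed between the prefixes, and no test was made of a count over members.

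The summed level of all members was 359 ± 69.6 CPM in matKO and 413 ± 48.8 CPM in WT oocytes, and 203 ± 87.7 CPM in matKO and 153 ± 35.8 CPM in WT 2C embryos. It was 59.1 ± 15.6 CPM in matKO and 58.9 ± 16.3 CPM in WT blastocysts, and 169 ± 77.0 CPM in matKO and 131 ± 39.4 CPM in WT ExE. Each pair of means differed by less than the SD between the matKO libraries. Several matKO 2C and ExE libraries lay above every WT library, while the lowest library of each of these stages was also a matKO library.

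**Figure D2:**
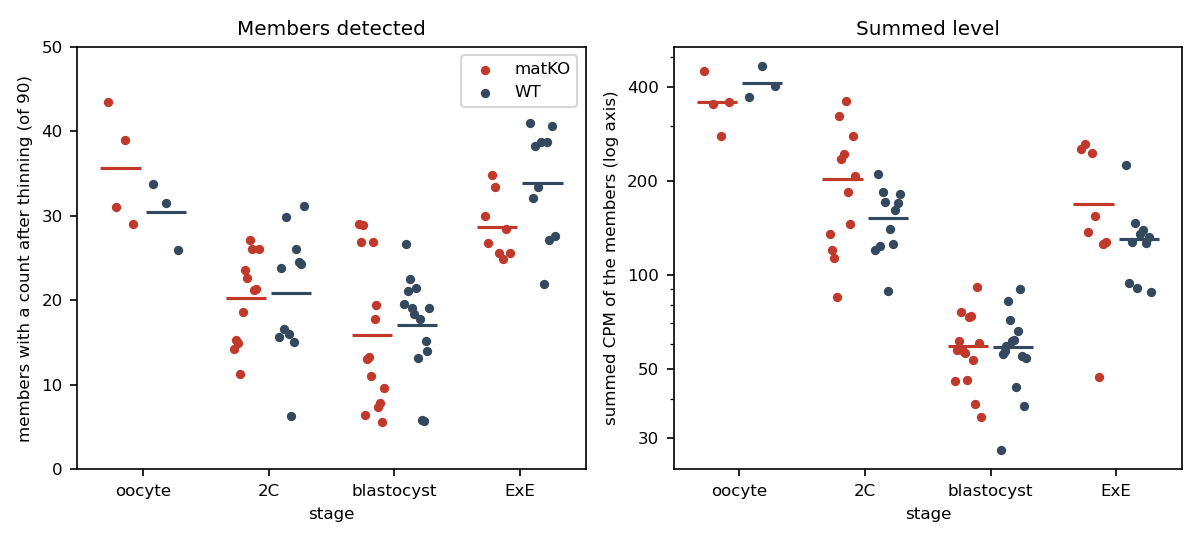
Left, members with at least 1 count after thinning (of 90). Right, summed CPM of the members on a log axis, 1 point per library and a line at the mean, with matKO left of WT at each stage. At every stage the points of matKO and WT overlap in both panels.

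Oocytes gave no called member. Of 22 members that passed the filter on low counts, 0 were called by edgeR's quasi-likelihood test at an adjusted p of 0.05, where the background of all tested genes was 0.0202%. No member was called by DESeq2 or by edgeR's newer fit either, and 0 of 22 had an unadjusted p under 0.05, against 6.27% of all tested genes. The median log2 fold change, matKO over WT, was 0.17 over the tested members and 0.02 over all tested genes.

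Lhx8 had 202, 262, 282 and 335 CPM in matKO oocytes, against 302, 337 and 390 CPM in WT oocytes. Of the 4 matKO oocytes 3 lay below every WT oocyte, and the log2 fold change was -0.35 ± 0.20 (SE; adjusted p = 0.826, edgeR). Hoxa7, which patterns thoracic vertebrae, had 8.85, 10.7, 40.6 and 42.2 CPM in matKO oocytes, against 14.7, 14.8 and 16.2 CPM in WT oocytes. The matKO oocytes thus lay in pairs below and above every WT oocyte (log2 fold change 0.76 ± 0.55; adjusted p = 0.875, edgeR). Among the members with the highest estimates was Irx3, at 1.57 on the log2 scale, and those with the lowest were Pax3, Dlx4 and Lhx6, at -1.76, -1.29 and -1.08. Their standard errors ran from 1.08 to 1.40.

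In 2C embryos, when the embryonic genome is first transcribed, 0 of 21 tested members were called, against a background of 0.731%. DESeq2 called none and edgeR's newer fit called 1, against 3.13% of all genes by that fit. An unadjusted p under 0.05 was reached by 4 members (19%), among them Lhx1, Hoxa7 and Irx5, against 14.2% of all tested genes. The median log2 fold change was 0.62 over the members and 0.02 over all genes, and 14 of 21 members had a positive value.

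Lhx1, a LIM-homeobox factor of the head organizer, ranged from 2.21 to 38.4 CPM in matKO 2C embryos (median 15.7) and from 0 to 17 CPM in WT 2C embryos (median 5.20). Most matKO embryos lay above the WT median but the ranges overlapped (log2 fold change 1.72 ± 0.69; adjusted p = 0.25, edgeR). With the newer fit its adjusted p was 0.0277. Hoxa7 ranged from 18.9 to 54.3 CPM in matKO (median 28.3) and from 8.19 to 35.7 CPM in WT (median 19.2), a log2 fold change of 0.63 ± 0.29 (adjusted p = 0.328, edgeR).

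Irx5 was the lowest estimate, with a count in 3 of 12 matKO and 9 of 11 WT embryos (log2 fold change -2.91 ± 1.28; adjusted p = 0.296, edgeR). Its matKO libraries alone would not have passed the filter on low counts, so Irx5 was tested only through its WT libraries. Lhx8 ranged from 1.5 to 69.1 CPM in matKO and from 23.1 to 78.6 CPM in WT embryos (log2 fold change -0.22 ± 0.35; adjusted p = 0.818, edgeR).

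Within matKO 2C embryos, Lhx1 was higher on average in the libraries with higher identifier numbers. The 7 matKO embryos with library identifier numbers 42 to 48 averaged 23.1 ± 11 CPM of Lhx1, the 5 with numbers 37 to 41 averaged 9.10 ± 8.15 CPM, and the 11 WT embryos averaged 5.36 ± 4.83 CPM (SD). Against WT, the embryos numbered 42 to 48 gave a log2 fold change of 2.32 ± 0.72 for Lhx1 (adjusted p = 0.0211, edgeR), where 22.5% of all tested genes were called. The embryos numbered 37 to 41 gave 0.75 ± 0.93 for Lhx1, which was not called. Whether Lhx1 differs between these sets of numbers was not itself tested. The labels mark no break between 41 and 42, so this division is not part of the design. The adjusted p for the embryos numbered 42 to 48 is thus not read as a result about genotype. Library totals were 4.19 to 10.97 megacounts for numbers 37 to 41 and 1.48 to 4.65 megacounts for 42 to 48.

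Cumulus and granulosa transcripts also differed between the 2C groups. The summed level of that list was 3.58 to 19.8 CPM in matKO and 0 to 1494 CPM in WT embryos. Of its 7 tested genes 3 were lower in matKO, where 0.731% of all tested genes were called. Of its 15 genes 6 were at 0 in every matKO embryo, Cyp11a1 among them. The number lower is thus not read as a result about the list. The mean of log2(CPM + 1) over the list was 0.387 ± 0.136 in matKO and 1.67 ± 1.04 in WT (SD, n = 12 and 11), so it differed with genotype. With the mean of that list as a covariate, 1 of 21 members was called, Lhx1 (log2 fold change 4.02 ± 1.14; adjusted p = 0.0364, edgeR). In that fit 6.26% of all genes were called.

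In blastocysts 0 of 19 tested members were called, against a background of 6.3%. No member had an unadjusted p under 0.05, against 19.8% of all tested genes. DESeq2 called none, and edgeR's newer fit called 1, Hoxb13, which was lower in matKO (adjusted p = 0.0461), against 13.4% of all genes. The median log2 fold change was 0.08 over the members and -0.03 over all genes.

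Nkx6-2 ranged from 7.89 to 73.1 CPM in matKO blastocysts (median 30.3) and from 2.16 to 80.7 CPM in WT blastocysts (median 20.9). Its log2 fold change was 0.06 ± 0.27 (adjusted p = 0.935, edgeR), and the groups overlapped over most of their range. Irx2 ranged from 0 to 11.4 CPM in matKO (median 2.79) and from 0 to 19.1 CPM in WT (median 9.10), with a log2 fold change of -0.83 ± 0.58 (adjusted p = 0.471, edgeR). The largest estimates were Hoxc13, Hoxd9 and Hoxd8, at 1.71, 1.34 and 1.15 on the log2 scale, and the lowest were Six5, Lhx2 and Irx3, at -1.65, -1.36 and -1.14. A count was found in 8 of 14 matKO and 8 of 14 WT embryos for Hoxd9 and Hoxd8 alike.

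In ExE 6 of 25 tested members were called (24%), against a background of 24.9% of all tested genes. The 2 higher members were Irx1 and Hoxa7, 8% of those tested where 14.1% of all genes were higher, and the 4 lower members were Hoxb1, Hoxb5, Hoxb6 and Irx4, 16% where 10.7% of all genes were lower. The share called was thus at the background of a stage in which many genes changed. Hoxb1, Hoxb5 and Hoxb6 passed the filter on low counts through WT libraries alone, and Hoxa7 only through its matKO libraries. The shares higher and lower are thus not read as a result about the members. The median log2 fold change was -0.17 over the members and -0.07 over all genes. Unadjusted p-values under 0.05 were reached by 10 members (40%), against 37.7% of all genes.

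By family, the called Hoxb genes were Hoxb1, Hoxb5 and Hoxb6, which passed the filter on low counts through WT libraries alone, so their number is not read as a result about the family. Of the Hoxa genes, Hoxa7 was called higher. Neither of the tested Hoxc genes, neither of the Hoxd genes and none of Lhx1, Lhx2, Lhx6, Six2, Six4 and Six5 was called. Of 4 tested Irx genes, 1 was higher, 1 was lower and 2 were not called. No Pax gene passed the filter in ExE, though 7 of 9 had a count.

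**Figure D3:**
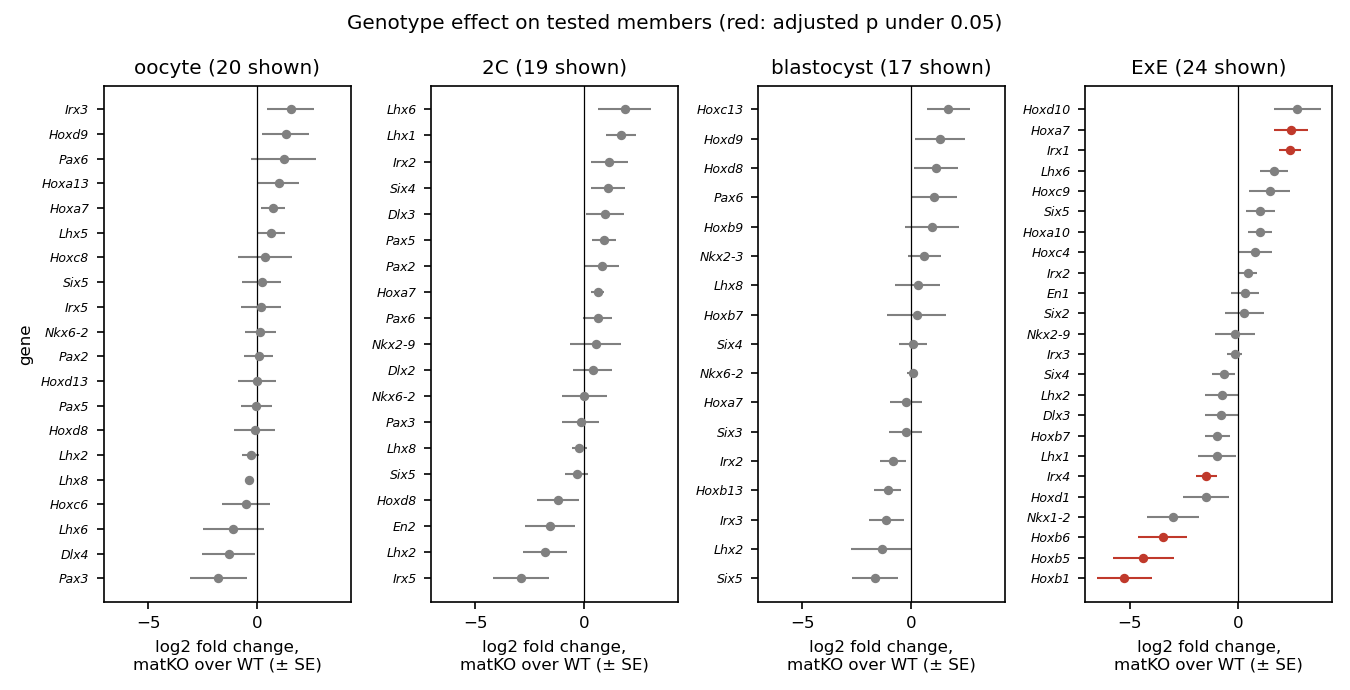
Log2 fold change, matKO over WT, with its SE for tested members at each stage. Members with an adjusted p under 0.05 (edgeR) are red, and all 6 of them are in ExE, where Hoxd10, Hoxa7 and Irx1 lie highest and Hoxb1, Hoxb5 and Hoxb6 lowest.

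Irx1, an Iroquois patterning factor, rose with the smallest adjusted p of the members. It had 4.71 to 115 CPM in matKO ExE (median 18.6), against 2.25 to 10.2 CPM in WT ExE (median 5.72). Of the 8 matKO libraries 7 lay above every WT library, and male 1 lay within the WT range. The log2 fold change was 2.37 ± 0.52 (adjusted p = 0.00255, edgeR). Female 1 and female 2 were the highest, at 115 and 61.1 CPM, and female 1 was also the smallest library of the stage. Irx1 kept its call in each of the 28 alternative fits of ExE that were run.

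Irx2, its neighbour in the cluster, ranged from 6.78 to 135 CPM in matKO (median 30.01) and from 7.01 to 72 CPM in WT (median 22.3), and was not called (log2 fold change 0.43 ± 0.44; adjusted p = 0.506, edgeR). Irx3, in the other cluster, ranged from 4.88 to 41.9 CPM in matKO (median 32.2) and from 8.73 to 63.1 CPM in WT (median 28.1), a log2 fold change of -0.17 ± 0.33 (adjusted p = 0.74, edgeR). The ExE groups overlapped widely in both genes.

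Hoxa7 also rose in matKO ExE, at a low level. It had 0.404 to 5.09 CPM in matKO (median 1.42), against 0 to 1.01 CPM in WT (median 0.327), and 6 of 8 matKO libraries lay above every WT library. The log2 fold change was 2.43 ± 0.78 (adjusted p = 0.0255, edgeR), and the pooled counts were 108 in matKO and 40 in WT. Its WT libraries alone would not have passed the filter on low counts, so Hoxa7 was tested only through its matKO libraries. The call was lost in 5 alternative fits (edgeR). The adjusted p was 0.0572 without matKO male 3, the highest library, 0.0646 with the replicate number as a block, 0.0653 with the decidua covariate, 0.0964 with the streak covariate and 0.0753 without WT males 1 and 2, with log2 fold changes of 2.04 to 3.23.

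Hoxb1, Hoxb5 and Hoxb6 were called lower in matKO ExE, where at most 2 of 8 libraries held any count of each. They passed the filter on low counts through WT libraries alone. Hoxb7, the other tested Hoxb gene, had counts in every library and was not called, at 1.51 ± 1.07 CPM in matKO and 2.79 ± 2.10 CPM in WT (SD, n = 8 and 10; log2 fold change -0.96 ± 0.57; adjusted p = 0.222, edgeR). Hoxb1, which marks the early primitive streak and later the hindbrain, had counts in 1 of 8 matKO libraries and in 8 of 10 WT libraries. It had 0 to 0.282 CPM in matKO (median 0), against 0 to 13.2 CPM in WT (median 1.06). The pooled counts were 3 in matKO and 312 in WT, a ratio of 0.0107 after library totals (95% counting interval 0.0022 to 0.0316). The fitted log2 fold change was -5.25 ± 1.27 (adjusted p = 0.00483, edgeR). WT male 1 and male 2 were highest, at 13.2 and 9.76 CPM, and the other WT libraries had 2.09 CPM or less.

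Hoxb6, a gene of trunk lateral mesoderm, had 0 to 0.320 CPM in matKO (median 0), against 0 to 2.78 CPM in WT (median 0.697). It had a count in 2 of 8 matKO and 7 of 10 WT libraries (log2 fold change -3.48 ± 1.13; adjusted p = 0.0272, edgeR). Hoxb5 had 0 to 0.0855 CPM in matKO (median 0), against 0 to 1.72 CPM in WT (median 0), with a count in 1 of 8 matKO and 4 of 10 WT libraries. Its pooled counts were 1 in matKO and 64 in WT, a ratio of 0.0174 (95% counting interval 0.000434 to 0.101), and the fitted log2 fold change was -4.36 ± 1.41 (adjusted p = 0.0273, edgeR). Hoxb5 was not called by DESeq2 (adjusted p = 0.104), by edgeR's newer fit (0.0559) or under the replicate block (0.115). The 4 WT libraries with Hoxb5, female 1, female 2, female 3 and male 3, each held more than 1 CPM of Hoxb6, whereas WT male 1 and male 2, highest in Hoxb1, had no Hoxb5 count. Counting intervals cover counting error only.

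Irx4, known from the heart ventricle, had 0.536 to 4.70 CPM in matKO ExE (median 3.25), against 1.23 to 26.7 CPM in WT ExE (median 6.56). The log2 fold change was -1.47 ± 0.48 (adjusted p = 0.0273, edgeR), and the groups overlapped at the low end, where 4 WT libraries lay below the highest matKO library. Irx4 lies on chromosome 13, as does Irx1, which moved the other way. Without WT female 1 the adjusted p was 0.086 for Irx4 and 0.0541 for Hoxb6 (edgeR). That fit called 3 members and 21.8% of all genes. Irx4 also missed the threshold without WT male 3 (0.057), Hoxb6 without matKO male 2 (0.0538) and Hoxb5 without matKO female 2 (0.0516).

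**Figure D4:**
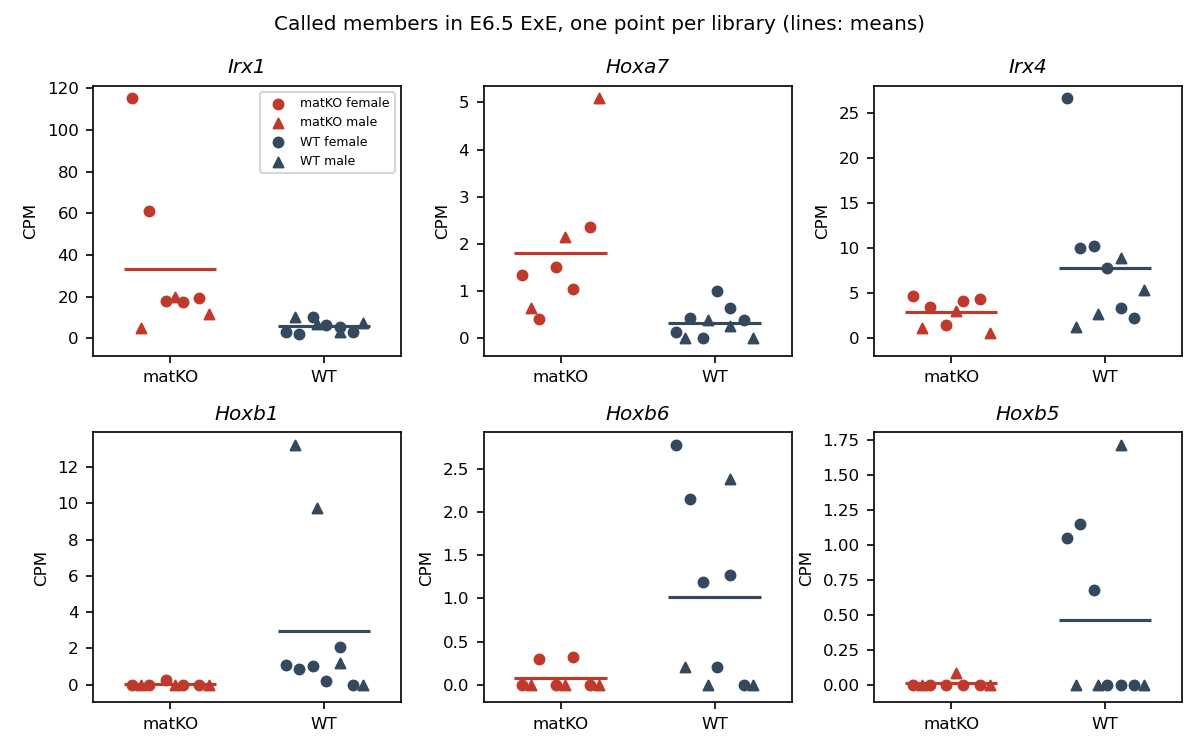
CPM of the 6 called members in each ExE library, matKO left of WT, with circles for females, triangles for males and a line at the group mean. Irx1 and Hoxa7 lie higher in matKO, and Hoxb1, Hoxb5 and Hoxb6 are at or near 0 in nearly all matKO libraries.

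Hoxd10, Lhx6 and Nkx1-2 had large estimates that missed the threshold in edgeR's main test but passed it with DESeq2 and with edgeR's newer fit. By the filter on low counts, Hoxd10 was tested only through its matKO libraries and Nkx1-2 only through its WT libraries. Hoxd10, a gene of the lumbar level, had 13.1 CPM in matKO female 4 and 0 to 1.88 CPM in the other matKO libraries, against 0 to 2.38 CPM in WT (log2 fold change 2.72 ± 1.07; adjusted p = 0.0653, edgeR; 0.0382 with DESeq2 and 0.0103 with the newer fit). Hoxa10, known for its role in the decidualising uterus, had 50.3 CPM in the same matKO female 4 and 1.79 to 8.23 CPM in the other matKO libraries, against 2.42 to 7.08 CPM in WT (log2 fold change 0.99 ± 0.54; adjusted p = 0.182, edgeR). The library matKO female 4 thus stood alone in both genes.

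Nkx1-2, a gene of the caudal epiblast, had a count in 3 of 8 matKO and 8 of 10 WT libraries (log2 fold change -3.01 ± 1.19; adjusted p = 0.0666, edgeR; 0.0236 with DESeq2 and 0.00785 with the newer fit). Lhx6, a LIM-homeobox factor of forebrain interneurons, averaged 4.20 ± 4.41 CPM in matKO and 1.18 ± 1.07 CPM in WT (SD, n = 8 and 10), and 7 of 8 matKO libraries lay above the WT mean. Its log2 fold change was 1.64 ± 0.64 (adjusted p = 0.0627, edgeR; 0.0262 with DESeq2 and 0.0145 with the newer fit). En1, a midbrain and limb gene, had a median of 8.32 CPM in matKO and 4.31 CPM in WT (log2 fold change 0.31 ± 0.63; adjusted p = 0.754, edgeR).

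Markers of neighbouring tissues moved with genotype in the same ExE libraries. The decidua and uterine stroma list summed to 58 to 1199 CPM in matKO and 11.7 to 257 CPM in WT, with 8 of 12 tested genes higher in matKO, none of its genes at 0 in all libraries of a group, and a median log2 fold change of 2.91. The primitive streak and mesoderm list summed to 29.7 to 123 CPM in matKO and 29.3 to 768 CPM in WT, with 3 of 8 genes lower (T, Mesp1 and Kdr). The blood and endothelium list summed to 6.66 to 300 CPM in matKO and 1.27 to 60.8 CPM in WT, with 3 of 5 tested genes higher.

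Some members were highest in the libraries with the most of these markers. WT male 1 and male 2, highest in Hoxb1, had the highest streak sums, at 768 and 278 CPM, and without both of them Hoxb1 was still called while Hoxa7 was not. The library matKO female 4, highest in Hoxa10 and Hoxd10, had a decidua sum of 917 CPM, second to the 1199 CPM of matKO female 2, which had 1.82 CPM of Hoxa10 and no Hoxd10. By the mean of log2(CPM + 1) over the list, matKO female 4 was the highest library at 4.79, against 2.43 in matKO female 2, and with that mean as a covariate the estimate of Hoxd10 was -1.30. In the same covariate fit 1 member was called, Irx1, where 8.46% of all genes were called. The adjusted p of the other 5 ranged from 0.0653 to 0.186 in that fit (edgeR), with larger standard errors. Their log2 fold changes kept their direction, at 3.23 ± 1.09 for Hoxa7, -4.33 ± 1.70 for Hoxb6, -1.58 ± 0.65 for Irx4, -3.88 ± 1.85 for Hoxb5 and -3.30 ± 1.40 for Hoxb1. The part of these tissues in the results was not tested.

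**Figure D5:**
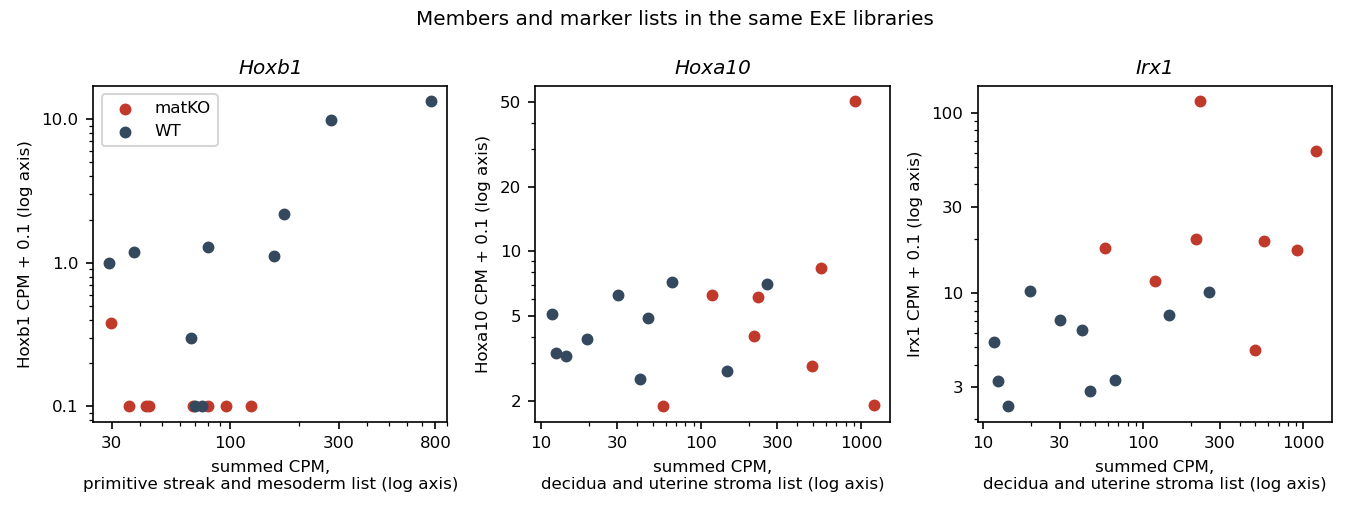
Hoxb1, Hoxa10 and Irx1 (CPM + 0.1) against the summed CPM of a marker list in each ExE library, matKO in red and WT in blue, on log axes. Hoxb1 is highest in the 2 WT libraries with the highest streak sum, Hoxa10 stands out in 1 matKO library, and 7 of 8 matKO points lie above every WT point in Irx1.

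Female and male embryos could not be shown to differ in their response. The genotype-by-sex test called 0 of 21 members in 2C embryos, 0 of 19 in blastocysts and 0 of 25 in ExE, where 0%, 0.00744% and 0% of all genes were called, and it reached an unadjusted p under 0.05 for 1, 1 and 4 members. DESeq2 called 0, 4 and 1 of all genes. Within ExE, Irx1 was called in females (log2 fold change 3.22 ± 0.55; adjusted p = 0.00108, edgeR; 9.69% of all genes called). In males, where 5.28% of all genes were called, Hoxb1 was called lower with no count in any of the 3 matKO males (adjusted p = 0.0287, edgeR). Irx1 was not called in males (log2 fold change 0.81 ± 0.66; adjusted p = 0.488, edgeR). For Irx1 the female minus male difference was 2.41 ± 0.86 on the log2 scale (unadjusted p = 0.0105, adjusted p = 0.999, edgeR).

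A list of 78 other PRC2-target regulators outside these families gave 0 of 27 called in oocytes and 0 of 28 in 2C embryos. In blastocysts 5 of 24 were called, against 6.3% of all tested genes. The T-box factors Tbx3 and Tbx20 were higher, Tbx3 at 111 ± 51.7 CPM in matKO and 66.2 ± 28.7 CPM in WT, and Tbx20 at 40.6 ± 13.9 CPM in matKO and 22 ± 6.59 CPM in WT (SD, n = 14 each). Foxa1, a forkhead factor of endoderm, was higher at 7.35 ± 6.45 CPM in matKO and 1.20 ± 1.97 CPM in WT. Lmx1a was also called higher, at 0.597 ± 0.921 CPM in matKO with no count in WT, and Tbx15 was lower, at 2.06 ± 2.46 CPM in matKO and 8.92 ± 5.61 CPM in WT. Lmx1a passed the filter on low counts through matKO libraries alone, so the number called is not read as a result about the list. In the same blastocysts 3 of 7 tested trophectoderm markers and 2 of 10 ExE markers were lower in matKO. The summed visceral endoderm list was 21.8 to 497 CPM in matKO (median 142) and 16.9 to 111 CPM in WT (median 56.5), with 0 of 4 tested genes called and Trf at 0 in both groups. The part of these markers in the blastocyst results was not tested.

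In ExE 10 of 32 of these other regulators were called, 3 higher and 7 lower, where 24.9% of all tested genes were called, 14.1% higher and 10.7% lower. Pitx1, a hindlimb and pituitary factor, averaged 10.8 ± 8.48 CPM in matKO and 1.20 ± 0.835 CPM in WT (SD, n = 8 and 10), a log2 fold change of 3.16 ± 0.55 (adjusted p = 0.000266, edgeR). Tal1, needed for blood formation, averaged 0.312 ± 0.305 CPM in matKO and 14.1 ± 14.3 CPM in WT, a log2 fold change of -5.37 ± 1.29 (adjusted p = 0.00657, edgeR). Tbx20 was lower in matKO ExE, at 0.941 ± 0.456 CPM in matKO and 6.39 ± 4.92 CPM in WT, and Foxf1, a factor of extraembryonic mesoderm, was lower at 0.0783 ± 0.132 CPM in matKO and 3.51 ± 3.63 CPM in WT. Foxa1 and Tbx20 were thus called higher in matKO blastocysts and lower in matKO ExE, each stage tested on its own. The matKO libraries of Tal1 and Foxf1 alone would not have passed the filter on low counts. The number called lower in ExE is thus not read as a result about the list.

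Among 24 DNA-binding partners and cofactors, such as Pbx, Meis, Lmo and Tle proteins, 6 of 19 tested were called in ExE, against 24.9% of all tested genes. None was called at the other stages, where the share of all genes was 0.0202% to 6.3%. Lmo2 averaged 3.07 ± 1.33 CPM in matKO and 16.7 ± 13.1 CPM in WT, and Lmo4 29.9 ± 11.4 CPM in matKO and 72 ± 31.7 CPM in WT (SD, n = 8 and 10). Meis3, called higher, averaged 8.15 ± 3.31 CPM in matKO and 2.99 ± 1.70 CPM in WT. Of 11 tested PRC2 subunit genes, none was called in oocytes, 2C embryos or blastocysts. In ExE Rbbp7, a histone-binding subunit, was higher, at 840 ± 391 CPM in matKO and 423 ± 115 CPM in WT, and Mtf2, an accessory subunit, was lower, at 48.9 ± 7.91 CPM in matKO and 87.9 ± 39.5 CPM in WT.

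Members that failed the filter numbered 68 in oocytes, 69 in 2C embryos, 71 in blastocysts and 65 in ExE. Few of them were high in any single library. A level of at least 5 CPM from at least 10 counts was reached 3 times in matKO and 0 times in WT 2C embryos, 1 time in each genotype in blastocysts, 3 times in matKO and 0 times in WT ExE, and never in oocytes. How often other untested genes reached that level was not counted, so these numbers are not read as a result about the members. The 2C cases were Hoxb13 at 21.1 CPM in matKO male 6, Dlx4 at 6.98 CPM in matKO female 3 and Hoxa3 at 6.07 CPM in matKO female 6. The ExE cases were Hoxd11, Hoxd9 and Hoxd8, at 6.24, 5.92 and 5.04 CPM, all in matKO female 4, the library already high in Hoxd10 and Hoxa10. In blastocysts Nkx2-9 reached 5.09 CPM in matKO male 2, and Lhx6 5.41 CPM in WT male 3.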

How the data were processed

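Whole-number counts per gene were deposited by the authors, 1 table per stage, made with Trim Galore, STAR, SAMtools and featureCounts on the mouse build mm10, per the submitters' processing notes, which name no versions. The sources used here give neither the annotation release nor the strand setting or the treatment of reads with several matches. The tables also hold 8 columns of counts that match no sample in the labels, and these were not used.

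Each stage was fitted on its own over all genes. Genes were kept by filterByExpr with a minimum count of 10, scaled by TMM, and tested with the quasi-likelihood test of edgeR 4.0.16 in R 4.3.3 (estimateDisp, then glmQLFit with robust and legacy settings), with sex as a term and, in blastocysts, the identifier prefix. The Benjamini-Hochberg adjustment ran over all genes of a stage, and an adjusted p under 0.05 is a call. Standard errors are those implied by the F statistic. CPM values are counts per 1000000 counts of the TMM-scaled library total. The procedure was tested on simulated counts.

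Alternatives were edgeR's newer fit, DESeq2 1.42.0, other size factors, filters and covariates, a replicate block, leaving out each library, and subsets by identifier. The streak covariate, the fit without WT males 1 and 2, and the look at single libraries of untested members were added after seeing the data. The members and gene lists were chosen with earlier results of these data known. Named members were all called ones, the 5 highest per kilobase and the 3 largest estimates in each direction at each stage, the members with an unadjusted p under 0.05 at the 2C stage, and Irx2, Irx3, Hoxa10, Nkx1-2 and single-library cases chosen after their values were seen. Some members that this rule names are not reported here; they stay in the fits, counts and medians but not in the maps of single members. Libraries of a group all differed beyond sampling noise (chi-square per degree of freedom of 10.1 or more in 183 pairs).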

Additional observations from a re-analysis of the deposited data

Results flagged for a closer look

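In ExE, 4 values among the called members lay far from the other libraries of their genotype and sex. Irx4 had 26.7 CPM in WT female 1, against 10.2 CPM in the next of the 6 WT females. Hoxb6 had 2.38 CPM in WT male 3, against 0.205 CPM in the next of the 4 WT males. Hoxb5 had 1.72 CPM in the same WT male 3, and no count in the other 3 WT males. Hoxb1 had 0.282 CPM in matKO female 3, and no count in the other 4 matKO females. In all 41 sets of values were examined, of which chance marks about 1 in 20.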

How the results depend on the processing

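In oocytes no alternative gave a called member. In 2C embryos the newer edgeR fit gave 1 (Lhx1), matKO embryos numbered 42 to 48 gave 2 (Lhx1 among them), and the granulosa covariate gave 1 (Lhx1). The shares of all genes called in these fits were 3.13%, 22.5% and 6.26%. In blastocysts the newer fit gave 1 lower (Hoxb13), where 13.4% of all genes were called. A minimum count of 3 and prefix D405T alone each gave 1 higher (Hoxb6), where 5.64% and 5.18% of all genes were called. No filter gave 5 higher (Dlx5, En1, Hoxb6, Hoxc9 and Nkx6-1), where 4.19% of all genes were called. Of these, Dlx5, En1, Hoxc9 and Nkx6-1 had no count in WT blastocysts, so their number is not read as a result about the members. In ExE a minimum count of 3 gave 8 of 51 tested, adding Hoxa11 and Hoxa3, where 21.1% of all genes were called. No filter gave 8 of 85, adding Hoxa3 and Pax5, where 13.5% of all genes were called. In each of these fits 4 were higher, against 2 in the reported fit. Hoxa11, Hoxa3 and Pax5 had most of their ExE counts in matKO libraries, so the number higher is not read as a result about the members. The replicate block gave 3 (Hoxb1, Hoxb6 and Irx1) and the decidua covariate gave 1 (Irx1), where 18% and 8.46% of all genes were called. DESeq2 and the newer fit gave 8 of 25 each, with Hoxd10, Lhx6 and Nkx1-2 in place of Hoxb5. They called 29.8% and 31.2% of all genes. Leaving out each library gave 3 to 8 called members in ExE, the lowest without WT female 1, and 0 at each other stage and for every genotype-by-sex test. Replicate numbers did not pair the libraries: of 35 same-numbered pairs, 9 had correlated deviations over 0.1. Estimates that changed sign were not called in either fit. Under the block these were Nkx6-2 in oocytes (-0.060), Dlx3 in 2C embryos (-0.035), and Six5 (0.12), Lhx2 (0.027) and Hoxd8 (-0.056) in blastocysts. With matKO 2C embryos 37 to 41 they were Irx2 (-0.94), Dlx3 (-1.30) and Lhx6 (-2.82), and with 42 to 48 Lhx8 (0.10). In blastocysts Hoxd8 was -0.14 without the prefix term and Nkx6-2 was -0.35 within D707T. In ExE Hoxd10 was -1.30 with the decidua covariate and Irx2 was -0.070 with the streak covariate, an alternative chosen after seeing the data. Leaving out single libraries, Nkx6-2 ran from -0.34 to 0.67 in oocytes and from -0.047 to 0.16 in blastocysts, Lhx6 in oocytes from -1.66 to 2.27, and En1 in ExE from -0.21 to 0.61. The cause of these changes was not tested. Most members fell below the count filter and so have no test in the reported fits.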
